A study of Homo sapiens with 6 samples.

Results

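The MEX3 family is made up of 4 human genes, *MEX3A*, *MEX3B*, *MEX3C* and *MEX3D*, and all 4 were found by NCBI gene ID (92312, 84206, 51320 and 399664) among the 28395 genes of the count table. *MEX3A* was picked for its fall after KIFC1 knockdown in these libraries, and the other members because they belong to its family. The change of *MEX3A* is therefore described without a test. RNA was sequenced from NCI-H146, an established human small-cell lung cancer (SCLC) line, on day 2 after transfection. The 3 control libraries came from wild-type cells given a negative control siRNA, and the 3 knockdown libraries from cells given an siRNA against *KIFC1*, the kinesin motor gene that holds extra centrosomes together. The knockdown was transient, all libraries came from 1 cell line, and the labels do not say which of the *KIFC1* siRNAs named in the methods was used.

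MEX3 proteins carry a pair of KH domains, which bind RNA, and a RING domain, which passes ubiquitin to other proteins. They are the vertebrate relatives of MEX-3, a translational regulator of cell fate in the worm embryo, and they act after transcription, on the stability and translation of mRNAs and on protein turnover. *Mex3a* marks a slowly cycling subset of *Lgr5*-positive stem cells in the mouse intestine. MEX3C ubiquitinates the RNA sensor RIG-I, and MEX3D binds the AU-rich element of *BCL2* mRNA.

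In GENCODE 44 on GRCh38, the main transcript of each member has 2 exons and lies on the minus strand. *MEX3A* occupies chromosome 1 from 156072013 to 156082465, *MEX3B* chromosome 15 from 82041778 to 82046119, *MEX3C* chromosome 18 from 51174550 to 51218333, and *MEX3D* chromosome 19 from 1554672 to 1568325. The coding parts are of similar size, from 1563 bases in *MEX3A* to 1980 bases in *MEX3C*. The 3′ UTRs are not: that of *MEX3A* is 4561 bases long, 69.2% of its mRNA, against 1801 bases in *MEX3C*, 1382 in *MEX3B* and 891 in *MEX3D*. No other annotated exon overlaps an exon of any member. Of the 32-base words in each mRNA, at most 2.34% (in *MEX3D*) occurred elsewhere in the genome and 0 on its alternate sequences, so few reads of the family could be shared with a copy.

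The members also differ in a short word. GAGATCT occurs once in the coding part of the *KIFC1* mRNA, and it had been found in the 3′ UTRs of many genes that fell in these same libraries. Among the MEX3 mRNAs it was present in *MEX3A* alone, once in the 5′ UTR (exon 1) and once in the 3′ UTR (exon 2), and absent from *MEX3B*, *MEX3C* and *MEX3D*. The sites are shown with the word in capitals, since *MEX3A* differs from its relatives in it, as it does in the length of its 3′ UTR, and are read 5′ to 3′ along each mRNA from the reference genome.
KIFC1 coding site, chr6:33405471-33405499, plus strand: caagctacgtaGAGATCTacaatgagact
MEX3A 3′ UTR site, chr1:156073742-156073770, minus strand: gtgagatttaaGAGATCTagatttttttt
MEX3A 5′ UTR site, chr1:156082254-156082282, minus strand: ggagaggagagGAGATCTgctttcttggt
The 3′ UTR site of *MEX3A* matched the *KIFC1* site over 9 bases in a row, 1 beyond the word on each side, and the 5′ UTR site over the 7 bases of the word. The last 6 bases of the word, AGATCT, occurred once in *MEX3B*, in its 3′ UTR, and once in *MEX3C*, outside its 3′ UTR. The word GCAACC, found in the same way among rising genes, occurred in the 3′ UTR of none of the 4 members.

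Total counts ran from 15392374 to 17754458 per library, and mitochondrial genes took 8.34% to 13.1% of them. For *KIFC1* the control libraries held 14, 4 and 14 counts, and the KIFC1 siRNA libraries 1, 1 and 0. Summed over libraries it was 14.8-fold lower (32 against 2 counts scaled by depth, exact Clopper-Pearson 95% interval 3.78 to 127.5, counting error only). Its fitted log2 fold change was -3.66 (SE 0.82, adjusted p = 0.0739 in edgeR, and 0.00459 with the replicate number as a block), and 87.9% of the 32-base words of its mRNA also occur on alternate sequences of GRCh38. Of the 12 neuroendocrine markers, 11 were above 10 CPM (counts scaled to a common library size) in every library, and *CHGA*, the granule protein gene, spread from 9.26 to 53.9 CPM with KIFC1 siRNA against 6.51 to 8.82 CPM with control siRNA. *NCAM1*, the neural adhesion gene, had a log2 fold change of -0.42 (SE 0.11, adjusted p = 0.137 in edgeR, 0.000646 with the block), and *GRP*, a neuropeptide gene, one of 0.28 (SE 0.11, adjusted p = 0.45 in edgeR). Markers of non-neuroendocrine cells were close to 0, with 7 of 8 under 1 CPM in every library and a summed level of 0.620 to 1.26 CPM with control siRNA and 0.912 to 3.70 CPM with KIFC1 siRNA. Of 14777 genes tested, 48 were higher and 55 lower at an adjusted p under 0.05 in edgeR's quasi-likelihood test, which is 0.697% of them, and with the replicate number as a block 407 (2.75%) were higher and 454 (3.07%) lower, 5.83% in all. The first count was 24 to 468 genes when 1 library was left out.

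*MEX3A* was the most abundant member in cells given control siRNA. Its counts were 1891, 1747 and 2266, or 113.5, 109.4 and 123.4 CPM after TMM scaling. With KIFC1 siRNA it had 1009, 884 and 837 counts, or 64.4, 58.2 and 51.3 CPM. Every knockdown library lay below every control library, and the highest knockdown level was well under the lowest control level. The mean went from 115.4 ± 7.21 to 58.0 ± 6.59 CPM (SD, n = 3). This is a log2 fold change of -0.99 (SE 0.12), which leaves 50.2% of the control level. The same values set against the library of the same replicate number gave ratios of 0.568, 0.532 and 0.415.

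Over all genes tested 0.372% were called lower at an adjusted p under 0.05, 7.52% had every knockdown library below every control library and 7.99% had every one above. Since *MEX3A* was chosen on this contrast, no call is given for it and nothing is read from its lack of overlap. Of all 14777 genes tested, 43 (0.291%) fell as far or further, *MEX3A* included. Among the 8983 genes with a mean log2 CPM of at least 4, 5 (0.0557%) did, *MEX3A* again included. This rank follows from the choice of *MEX3A* and is not a result. In bulk RNA, fewer cells with *MEX3A* mRNA and less of it per cell cannot be told apart.

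*MEX3B* was the least abundant member. It gave 192, 370 and 336 counts in the control libraries, or 11.5, 23.2 and 18.3 CPM. With KIFC1 siRNA it had 196, 323 and 320 counts, or 12.5, 21.3 and 19.6 CPM. The knockdown values lay within the range of the controls, and replicate 1 was the lowest library in both groups. The log2 fold change was 0.01 (SE 0.24, adjusted p = 0.996 in edgeR), and 2 standard errors on either side run from -0.48 to 0.50. That interval does not reach the change of *MEX3A*, which was chosen for its fall, and the 2 genes were not tested against each other. The interval of *MEX3B* allows a shift of either sign, and scaling by library size alone turned the sign to -0.0087.

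*MEX3C*, the ligase for RIG-I, gave 854, 1136 and 1259 counts in the control libraries, or 51.3, 71.1 and 68.6 CPM. With KIFC1 siRNA its counts were 909, 1140 and 1297, or 58.0, 75.1 and 79.4 CPM. The groups overlapped, with replicate 1 again the lowest library of each, and the knockdown library was above the control library of the same number in 3 of 3 pairs (ratios 1.13, 1.06 and 1.16). The log2 fold change of 0.15 (SE 0.15) had an adjusted p of 0.859 in edgeR, and the interval of 2 standard errors ran from -0.15 to 0.46.

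*MEX3D*, the *BCL2* mRNA-binding member, gave 355, 501 and 589 counts in the control libraries, or 21.3, 31.4 and 32.1 CPM. With KIFC1 siRNA it had 306, 470 and 327 counts, or 19.5, 31.0 and 20.0 CPM. The groups overlapped, and the knockdown library was below the control library of the same number in each pair. Replicates 1 and 2 stayed near their controls (ratios 0.917 and 0.987) while replicate 3 was lower (ratio 0.624). The log2 fold change of -0.27 (SE 0.20) had an adjusted p of 0.787 in edgeR, with an interval of 2 standard errors from -0.67 to 0.13. Without KIFC1 siRNA replicate 2 it was -0.52, the furthest of the fits with 1 library left out, with an adjusted p of 0.345 in edgeR.

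**Figure D1:**
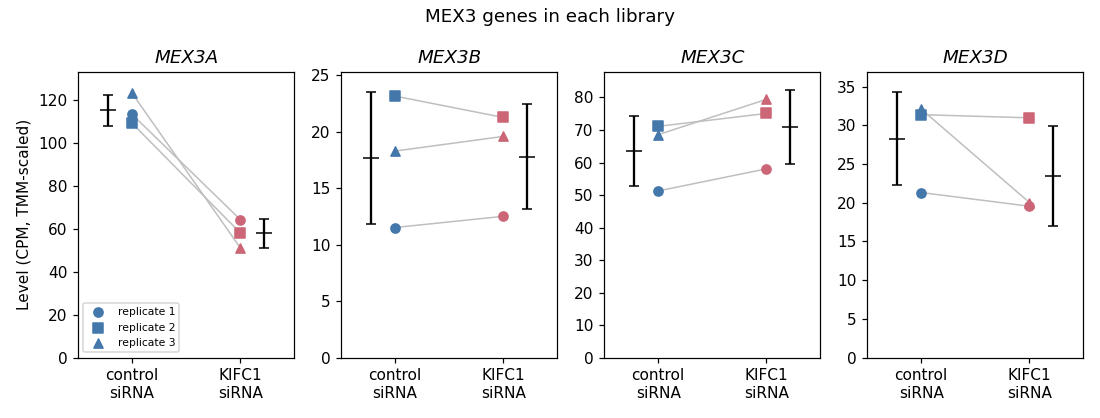
Level of each MEX3 gene in CPM (TMM-scaled, y axis from 0, a scale of its own per panel) in the 3 control siRNA and 3 KIFC1 siRNA libraries. Symbols mark the replicate number, grey lines join libraries of the same number, and black bars give the mean ± SD. *MEX3A*, chosen for its fall, goes from 109.4 to 123.4 CPM down to 51.3 to 64.4 CPM with no overlap. The groups overlap for *MEX3B*, *MEX3C* and *MEX3D*.

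**Figure D2:**
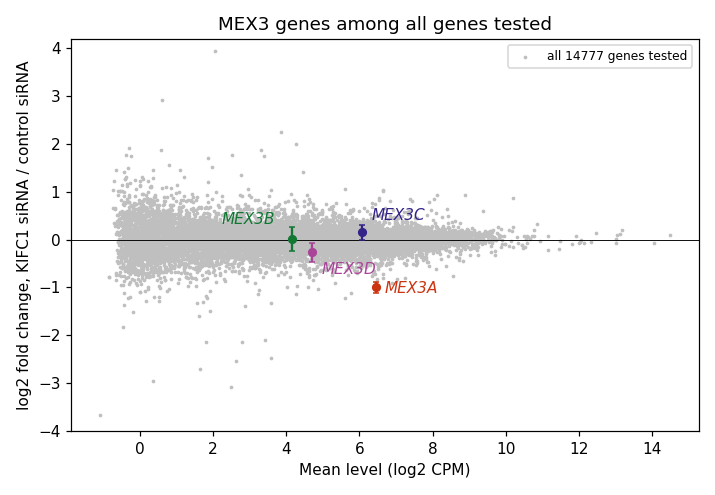
Log2 fold change (KIFC1 siRNA over control siRNA) against mean level in log2 CPM for the 14777 genes tested (grey) and the 4 MEX3 genes (coloured, bars ± SE). *MEX3A*, chosen for its fall, lies at -0.99, at the lower edge of the genes of like abundance. *MEX3B* lies at 0.01, *MEX3C* at 0.15 and *MEX3D* at -0.27, nearer to 0.

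To compare the members with one another, CPM was divided by the length of all annotated exons in kilobases. With control siRNA *MEX3A* had 17.2, 16.6 and 18.7 CPM per kilobase, above 82.0% of the genes tested that had a length. *MEX3D* followed with 6.84, 10.1 and 10.3, then *MEX3C* with 6.51, 9.04 and 8.71 and *MEX3B* with 2.65, 5.34 and 4.21 CPM per kilobase. *MEX3A* lay above *MEX3D* with no overlap, 1.93-fold by the means. *MEX3C* lay above *MEX3B* with no overlap either (1.99-fold, exact two-sided permutation p = 0.1, the smallest that 3 values against 3 allow), and the levels of *MEX3D* and *MEX3C* overlapped (exact permutation p = 0.5). Both tests set against each other 2 genes read in the same 3 libraries.

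With KIFC1 siRNA the order per kilobase was different. *MEX3C* stood at 9.00 ± 1.44, *MEX3A* at 8.80 ± 1.00, *MEX3D* at 7.55 ± 2.07 and *MEX3B* at 4.10 ± 1.07 CPM per kilobase (SD, n = 3). The first 3 overlapped with their neighbours, and *MEX3B* stayed below the others without overlap. The place of *MEX3A* in this order follows from the fall it was chosen for. *MEX3A* made up 51.8%, 40.4% and 44.6% of the summed level of the family per kilobase in the control libraries and 37.2%, 26.6% and 27.0% in the knockdown libraries. The place of *MEX3C* depends on its length, which is 7871 bases over all annotated exons and 4142 bases in its longest transcript. With the longest transcript of each gene, *MEX3C* had 15.4 ± 2.61 CPM per kilobase with control siRNA (SD, n = 3), which overlapped with *MEX3A*. With KIFC1 siRNA its mean was then 1.94 times that of *MEX3A*. The annotation used for counting is not given in the sources used here.

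**Figure D3:**
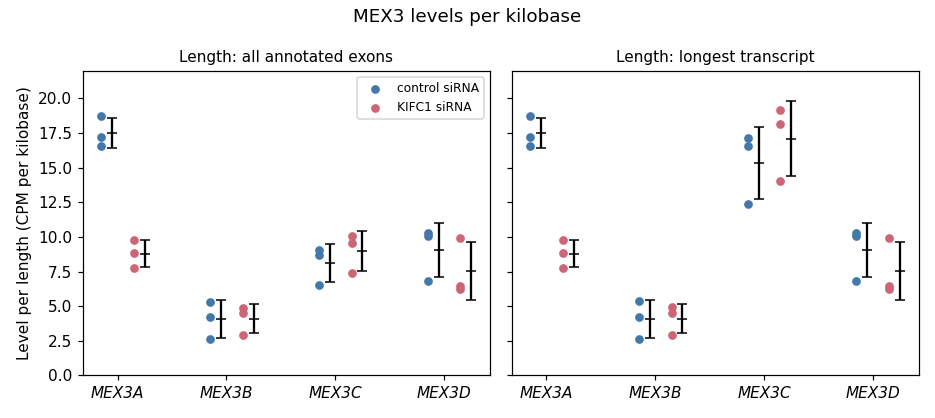
Level of each MEX3 gene in CPM per kilobase (y axis from 0) in control siRNA (blue) and KIFC1 siRNA libraries (red), with points for libraries and black bars for mean ± SD. Length is that of all annotated exons on the left and of the longest transcript on the right. *MEX3A* leads with control siRNA on the left at 17.5, and *MEX3C* rises from 8.09 to 15.4 when the shorter length is used.

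The background of the GAGATCT word was counted over the 12973 tested genes whose annotated 3′ UTR reached 50 bases. The word was present in 1163 of them (8.96%), and in 19.7% of the 1314 genes whose 3′ UTR was within 1.25 times the length of that of *MEX3A*. Genes with the word had a median log2 fold change of -0.11, against 0.02 for those without it, and 1.03% and 0.178% of the respective genes fell as far as *MEX3A*. Among the genes with a 3′ UTR of like length the medians were -0.10 for the 259 with the word and -0.02 for the 1055 without it. The longer word AGAGATCTA, which the 3′ UTR of *MEX3A* shares with *KIFC1*, was in 87 genes (0.671%) with a median of -0.19. Both words were picked with these libraries in view, so the shares are a description, and the part of the word in the fall of *MEX3A* was not tested.

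The annotated gene *MEX3A* begins 107 bases from *LMNA*, the nuclear lamin A/C gene, which is read in the opposite direction. Each start is the outermost over all annotated transcripts of the gene. For *MEX3A* it is also the start of the main transcript, while for *LMNA* it need not be. Counts per gene do not show which start *LMNA* uses in these cells. The sequence between the 2 annotated genes (chr1:156082466-156082572, GRCh38, minus strand) is shown because the annotated starts of both genes border it, with its single GC box (GGGCGG, searched on both strands) in capitals.
MEX3A to LMNA window: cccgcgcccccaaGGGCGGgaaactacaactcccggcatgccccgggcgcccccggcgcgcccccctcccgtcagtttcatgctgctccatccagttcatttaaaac
GGGCGG occurs on either strand in 45.0% of all RefSeq promoters, taken as the 300 bases around each start, and 1, 4, 2 and 7 times in those of *MEX3A*, *MEX3B*, *MEX3C* and *MEX3D*. *LMNA*, named for its position, had 30.5, 37.6 and 32.5 CPM with control siRNA and 35.6, 40.0 and 32.3 CPM with KIFC1 siRNA. Its groups overlapped, with a log2 fold change of 0.10 (SE 0.13, adjusted p = 0.895 in edgeR, interval of 2 standard errors -0.15 to 0.36). That interval lies above the change of *MEX3A*, which was chosen for its fall, and the 2 genes were not tested against each other.

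Across the 6 libraries, the pattern of *MEX3A* was compared by Pearson correlation of log2 CPM with that of 8982 genes of a mean log2 CPM of at least 4. The 5 most like it were *BHLHE22* (r = 0.999), a neuronal transcription factor gene, *NUDCD3* (r = 0.995), a cochaperone gene, *ANTXR2* (r = 0.991), a receptor of anthrax toxin, *RTN3* (r = 0.989), a reticulon of the endoplasmic reticulum, and *RNF41* (r = 0.987), a ubiquitin ligase gene. The points share their libraries and fall into 2 groups, so that r mostly follows the difference between the groups, and 70 genes reached 0.95. *BHLHE22* had 277.5, 278.2 and 289.4 CPM with control siRNA and 205.7, 193.5 and 180.3 CPM with KIFC1 siRNA. Like *MEX3A*, it was highest in control replicate 3 and lowest in knockdown replicate 3. The changes were smaller than that of *MEX3A*, with log2 fold changes from -0.57 in *RNF41* to -0.36 in *ANTXR2*. The 3′ UTRs of *NUDCD3*, *ANTXR2* and *RTN3* held 1 copy of GAGATCT each, and those of *BHLHE22* and *RNF41* 0 copies. The 3′ UTRs with the word were 6892, 6283 and 1681 bases long, in the same order. Of the 12973 genes counted for the word, 8.96% held it. The word was found among genes that fell in these libraries, and these 5 genes were picked for following *MEX3A* in them. The copies are therefore a description, and the part of the word in these falls was not tested.

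**Figure D4:**
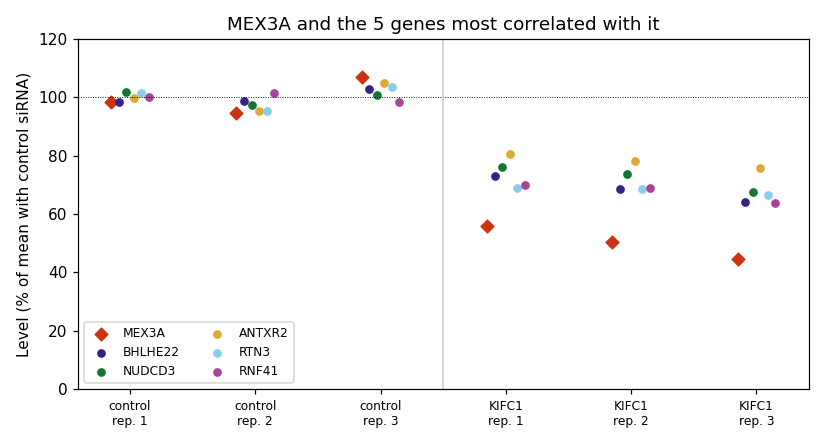
Level of *MEX3A* (diamonds) and of the 5 genes most correlated with it (circles) in each library, as a percentage of the gene's own mean with control siRNA (y axis from 0). All 6 genes lie below 100% in each knockdown library, and *MEX3A* lies lowest in each. *MEX3A* was chosen for its fall and the other 5 for following it, so neither point is a result.

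Genes with related functions were described by list. Over all genes tested 1369 of 14777 had an unadjusted p under 0.05 in edgeR. The calls over all genes were 103 (0.697%) in edgeR, 274 by DESeq2 on the same genes and 97 by limma-voom. Of 13 other ubiquitin ligases that bind RNA, all tested, 0 were called in edgeR, 0 had an unadjusted p under 0.05, and 0 were called by DESeq2 or limma-voom. Their median log2 fold change was -0.10, with 9 below 0, against 0.01 over all genes tested. The widest was *TRIM71*, the LIN-41 ligase of stem cells, with 9.78, 9.89 and 17.9 CPM with control siRNA and 7.28, 5.33 and 14.5 CPM with KIFC1 siRNA. Replicate 3 was the highest library in both groups, and the groups overlapped. The log2 fold change was -0.47 (SE 0.35, adjusted p = 0.779 in edgeR), and with the replicate number as a block it was -0.52 (adjusted p = 0.0311 in edgeR). The fit with the block called 5.83% of all genes tested. *RC3H2*, a roquin that binds stem-loops, had a log2 fold change of -0.32 (SE 0.46), and *CNOT4*, a ligase that joins the CCR4-NOT complex, one of 0.25 (SE 0.14), with adjusted p of 0.912 and 0.670 in edgeR.

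Of 35 genes of other KH domain proteins, 29 were tested and 0 called in edgeR, against 0.697% of all genes tested. In edgeR 3 had an unadjusted p under 0.05. DESeq2 on the same genes called 2 of the KH genes and 274 genes in all, and limma-voom called 0 of the KH genes. The median log2 fold change was -0.01. *NOVA2*, a neuronal splicing regulator, had 22.9, 27.7 and 30.8 CPM with control siRNA and 19.0, 20.7 and 16.2 CPM with KIFC1 siRNA (log2 fold change -0.55, SE 0.15, adjusted p = 0.151 in edgeR). *KHSRP*, which promotes decay of AU-rich mRNAs, had 339.9 ± 4.03 CPM with control siRNA and 255.8 ± 23.3 CPM with KIFC1 siRNA (SD, n = 3), and its log2 fold change was -0.41 (SE 0.10, adjusted p = 0.114 in edgeR). *FXR1*, a relative of the fragile X protein, had 335.2 ± 29.5 CPM with control siRNA and 441.5 ± 52.8 CPM with KIFC1 siRNA (SD, n = 3), and its log2 fold change was 0.40 (SE 0.12, adjusted p = 0.209 in edgeR). In all 3 genes the groups did not overlap, which held for 15.5% of all genes tested. With the replicate number as a block, which called 5.83% of all genes tested, these 3 were the KH genes called, with adjusted p of 0.00483, 0.000699 and 0.00165 in edgeR.

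The CCR4-NOT complex shortens poly(A) tails and is a partner of MEX3C. Of 15 genes of its subunits and TOB/BTG adaptors, all tested, 0 were called in edgeR, DESeq2 or limma-voom, and 1 had an unadjusted p under 0.05. In edgeR 0.697% of all genes tested were called, and 0 of 15 is near that share. The median log2 fold change was 0.03. *BTG1*, an antiproliferative adaptor, had the widest change at 0.27 (SE 0.11, adjusted p = 0.470 in edgeR), followed by the subunits *CNOT3* at -0.26 (SE 0.26, adjusted p = 0.868) and *CNOT9* at 0.16 (SE 0.11, adjusted p = 0.737).

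Of 13 genes listed as targets, partners or functional neighbours of MEX3 proteins, 11 were tested. In edgeR 0 were called, against 0.697% of all genes tested, and 3 had an unadjusted p under 0.05, and 0 were called by DESeq2 or limma-voom. The median log2 fold change was 0.00, which is the value of *PIGN*. *BCL2*, the MEX3D target, had a log2 fold change of -0.11 (SE 0.13, adjusted p = 0.892 in edgeR), and *RIGI*, which encodes RIG-I, one of -0.16 (SE 0.12, adjusted p = 0.788).

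*AGO2*, the slicing Argonaute of RNA interference, had 181.4, 189.6 and 245.9 CPM with control siRNA and 128.4, 117.0 and 189.1 CPM with KIFC1 siRNA. Replicate 3 was highest in both groups, and its knockdown library lay inside the control range. The log2 fold change was -0.51 (SE 0.18, adjusted p = 0.331 in edgeR), and *AGO2* fell in the fit with the block (adjusted p = 0.000116) and without KIFC1 siRNA replicate 3 (-0.75, adjusted p = 0.00550 in edgeR). Those 2 fits called more genes in all, 861 (5.83%) and 468, against 103 in the main fit. *BCL2L11*, which encodes the pro-apoptotic BIM, had a log2 fold change of 0.29 (SE 0.11, adjusted p = 0.392 in edgeR). Its groups did not overlap, which held for 15.5% of all genes tested. *LGR5*, the stem cell receptor gene, was low, at 20, 30 and 16 counts in the control and 32, 27 and 44 in the knockdown libraries (log2 fold change 0.73, SE 0.33, adjusted p = 0.521 in edgeR). *CNOT7* (0.03), *AGO1* (0.17), *PIGN* (0.0035) and *ZNF516* (-0.15) had log2 fold changes with adjusted p from 0.777 to 0.998 in edgeR. *PIGN* and *ZNF516* lie with *MEX3C* on chromosome arm 18q, whose loss goes with chromosomal instability in cancer. *CDX2*, the intestinal target of MEX3A, had 0 counts in each control library and 1, 3 and 0 with KIFC1 siRNA, and *TLR3* had at most 2 counts in any library, so no change could be measured for either gene at this depth.

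**Figure D5:**
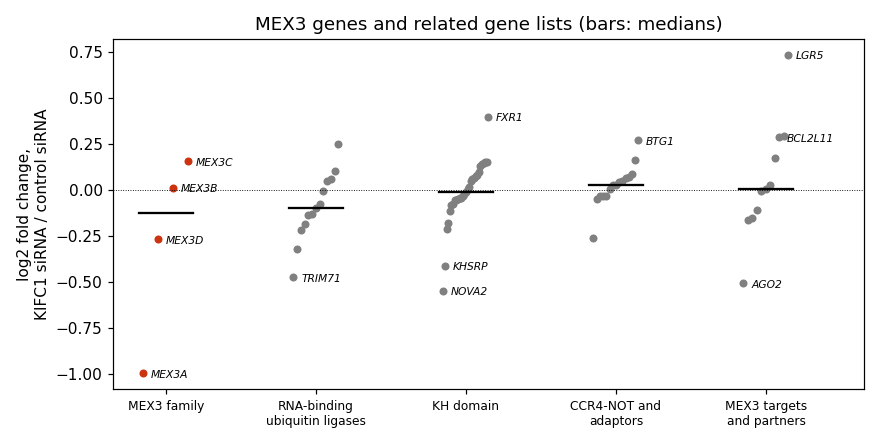
Log2 fold change (KIFC1 siRNA over control siRNA) of each tested gene in the MEX3 family (red) and in 4 related lists (grey), with a bar at the median of each. *MEX3A*, chosen for its fall, lies at -0.99, below every gene of the 4 lists, and its place is not a result. The lowest listed gene is *NOVA2* at -0.55, and list medians run from -0.10 to 0.03.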

How the data were processed

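The authors aligned reads to GRCh38 with HISAT2 2.2.1, counted them per gene with featureCounts 2.0.8 and deposited raw counts by NCBI gene ID, without normalization; the annotation and strand setting are not given in the sources used here. Symbols came from RefSeq (27745 IDs matched). The members and gene lists were chosen with earlier results of these data known. The test was edgeR 4.0.16's quasi-likelihood F test (R 4.3.3, filterByExpr, TMM, robust fit), adjusted by Benjamini-Hochberg over 14777 genes, with *KIFC1* added to the 14776 that passed the filter. Each SE was obtained from the fold change and its F. The biological coefficient of variation was 13.1%. Depth of 15392374 to 17754458 counts limits low genes, and the counting interval covers counting error only.

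Named genes are the members, *KIFC1* and every gene listed as a target, partner or functional neighbour of MEX3 proteins. They also include the 3 widest changes (mean log2 CPM of at least 2) and any call per list, and the 5 genes most correlated with *MEX3A*. Some listed genes, counted with their lists, are not reported here by name. *LMNA* was added for its position. Words, lengths and sites came from GENCODE 44 and hg38, with lengths for 96.9% of genes tested. Libraries with the same replicate number deviated together (correlations of 0.423, 0.336 and 0.413 across 12947 genes, against -0.367 to -0.0363 for different numbers). The numbers were therefore used as pairs in the fit with the block. The main fit leaves the pairs out, and the SEs and intervals given for the members come from it. The labels call them biological replicates and name no cultures, so p-values measure only the spread between these libraries. The test was checked on simulated data. Alternatives used DESeq2 1.42.0, limma 3.58.1, other scalings and filters, the block, and each library left out.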

Additional observations from a re-analysis of the deposited data

How the results depend on the processing

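The log2 fold change of *MEX3A* stayed between -1.01 and -0.99 in the 8 alternatives with all libraries and between -1.08 and -0.91 with 1 library left out. Those of *MEX3C* (0.02 to 0.28) and *MEX3D* (-0.52 to -0.15) kept their sign and stayed uncalled with each library left out. That of *MEX3B* was -0.0087 with library size only and ran from -0.22 to 0.25 with each library left out, uncalled in each (negative without control siRNA replicate 1 or KIFC1 siRNA replicate 2 or 3). The 103 genes called in all became 274 and 264 with DESeq2 on the same genes and on all genes with a count, 265 with no filter on low counts, and 24 to 468 with 1 library left out: 34, 26 and 24 without control siRNA replicate 1, 2 or 3, and 39, 64 and 468 without KIFC1 siRNA replicate 1, 2 or 3. The cause was not tested. *KIFC1* passed the threshold with limma-voom (-3.14, adjusted p = 0.0445), with no filter on low counts in edgeR (-3.66, adjusted p = 0.00412) and with the block, and ran from -4.03 to -3.12 with each library left out. The level of *MEX3C* with control siRNA was 15.4 CPM per kilobase with the length of the longest annotated transcript, against 8.09, since that length is shorter.

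With the replicate number as a block, 861 genes were called, and *KIFC1* had a log2 fold change of -3.65. The calls held 1 RNA-binding ligase, 3 KH domain genes and 1 gene of the targets, partners and functional neighbours. The block changed no call of *MEX3B*, *MEX3C* or *MEX3D* (adjusted p = 0.943, 0.393 and 0.211 in edgeR). Their SEs were smaller with it, at 0.12, 0.09 and 0.12, against 0.24, 0.15 and 0.20 in the main fit. The unadjusted p of *MEX3D* was under 0.05 in edgeR with the block (log2 fold change -0.27), as it was for 2617 of 14777 genes tested. KH domain calls were 2 and 1 with DESeq2 on the same and on all genes and 1 with no filter on low counts. Calls among targets, partners and functional neighbours ran from 0 to 1 with each library left out. The 1 was *AGO2* without KIFC1 siRNA replicate 3.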
